A study of Drosophila melanogaster with 19 samples.

Results

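Circular RNAs from 7 genes that encode RNA-binding regulators other than muscleblind were followed in S2 cells and in fly heads. The genes were pumilio (pum), pasilla (ps), arrest (aret), couch potato (cpo), smooth (sm), Sex-lethal (Sxl) and bancal (bl). Their members are all back-splice junctions that the deposited tables assign to these host genes: 15 of the 1280 junctions listed in S2 cells, 7 of the 447 listed in a stranded library of heads and 56 of the 4515 listed in the other head libraries, or 60 different junctions in all. A back-splice junction joins the end of an exon to its own start or to that of an upstream exon. It is the mark a circular RNA leaves in sequencing reads. Each junction is named here by its gene and the distance between its ends in bases, as in cpo-1710. All coordinates are from build dm3 and counted from 1.

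Heads came from flies with the C4 mutation, a slow allele of the large subunit of RNA polymerase II in a Canton-S background (slow), and from wild-type Canton-S flies (WT). Within a genotype, sample titles carry the number 29 or 18, called the title number here because no label explains it, and 2 replicates, so there were 8 RNA samples of heads. Each gave a library treated with RNase R, an enzyme that digests linear RNA from its free end but not circles, and a mock-treated one. S2 cells, a cultured line of embryonic origin, gave 1 RNase R and 1 mock library, and WT heads gave 1 stranded library, whose treatment and title number the labels do not state. The allele is inherited and not confined to a tissue. No label says whether the replicates of a group are separate collections of flies, and p-values therefore cover only library-to-library spread, possibly a technical one.

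Pumilio binds motifs in messenger RNAs and represses their translation, and arrest, also known as Bruno, is a translational repressor of oskar in the female germline. Pasilla is the fly counterpart of the mammalian Nova splicing regulators, and Sex-lethal is the switch of sex determination that acts by splicing and translational control. Couch potato carries an RNA recognition motif and is abundant in the nervous system. Smooth and bancal are the fly counterparts of the mammalian proteins hnRNP L and hnRNP K. Several such genes have long introns and alternative exons. In flies circular RNAs form by joining an exon's end backwards to its own start or to that of an upstream exon. This competes with the linear splicing of the same exons.

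Listed back-splice reads numbered 4871 to 20254 in each RNase R library of heads and 800 to 3427 in each mock library of heads. The 7 genes accounted for 1821 reads after RNase R, 1.82% of the total, and for 216 mock reads, 1.59%. Values are therefore given as reads per 10000 listed back-splice reads of a library, since the tables hold no other library size. A value of this kind says how large a part of all listed circles a junction makes up, not how much of it a cell holds, and in heads fewer cells of a type and less RNA per cell cannot be told apart. Of 8 neuron marker symbols, of which n-syb and nSyb name the same gene, 4 had listed junctions. Their summed level was 0 in the S2 RNase R library and 40.8 to 57.4 in RNase R head libraries. All 6 photoreceptor markers had junctions, with 4.03 in RNase R S2 cells and 29.1 to 53.9 in RNase R heads. The neuron markers elav, Appl and Syt1 had no listed junction in heads, and the junctions of nSyb were listed under n-syb.

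Among the 56 member junctions of heads, ps had 11, cpo 10, sm 10, pum 9, Sxl 7, bl 6 and aret 3. Most were rare: 35 had at most 10 reads over the 8 RNase R libraries together, and 22 stood in 1 of the 2 replicate tables only. By their length, 32 of the 56 (57.1%) matched a run of several annotated exons of the host gene, 7 (12.5%) matched a single exon and 17 (30.4%) matched neither. Over all head junctions these shares were 52.3%, 11% and 30.7%. Lengths were compared with a later annotation, and no position was carried over between builds.

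In RNase R heads cpo stood highest and Sxl lowest of the 7 genes, and in 6 of them 1 junction held over 40% of the reads. Reads across a junction need no correction for length. The summed level of cpo was 54.5 ± 20.4 reads per 10000 (SD, n = 8), followed by ps at 42.7 ± 8.18, pum at 23.2 ± 8.68, bl at 22.7 ± 5.34, sm at 22.6 ± 5.53, aret at 11.3 ± 4.87 and Sxl at 5.72 ± 2.25. Every neighbouring pair in this order overlapped over the 8 libraries. By rank among the 4515 head junctions, cpo-1710 came 30th, ps-811 69th, bl-3138 81st and pum-777 113th.

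**Figure D1:**
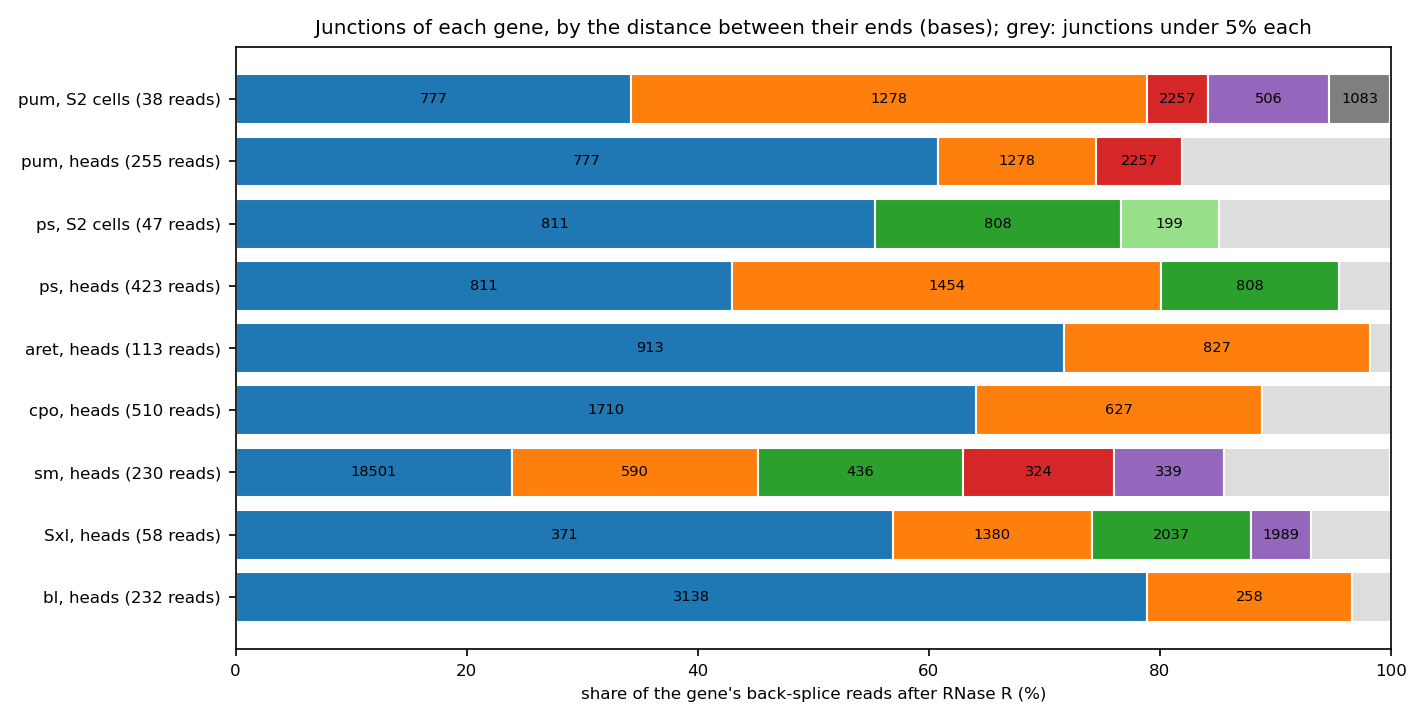
Share of each junction in its gene's back-splice reads after RNase R, pooled over the 8 head libraries or in the S2 library, in percent on the horizontal axis. Numbers in the bars are distances between the ends in bases, with junctions under 5% pooled in light grey. The junction pum-777 made up 34.2% of the reads in S2 cells and 60.8% in heads.

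cpo was dominated by a group of junctions with shared ends. Its leading junction, cpo-1710 (3R:13834587-13836296, plus strand), matched 3 exons and had 327 of the 510 RNase R reads, or 64.1%. The next, cpo-627 (3R:13835670-13836296), ends at the same donor, starts 1083 bases further in and matched 2 exons. It had 126 reads. Of the 8 further cpo junctions, 6 shared an end with cpo-1710 or cpo-627. The others were cpo-390, with 9 reads, and cpo-1356, with 5. The balance of the 2 main junctions was similar across libraries: cpo-627 made up 22.2% to 38.8% of the pair in the 8 RNase R libraries (mean 28.9 ± 5.64, SD). Pooled over libraries it made up 27.8% after RNase R (Wilson 95% interval 23.9 to 32.1) and 26.5% in mock (16.2 to 40.3).

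In ps, 2 separate exon groups carried the circles. ps-811 (3R:5257751-5258561, plus strand) matched a single, partly coding exon and had 182 RNase R reads, and ps-808, which starts 3 bases further in and ends at the same base, had 65. ps-1454 (3R:5270766-5272219) lies further downstream, matched 3 exons and had 157 reads. The other 8 ps junctions of heads had 0 to 8 reads each. A start 3 bases apart at a shared donor occurred 22 times over all 4515 head junctions, against 2 times for ends 3 bases apart at a shared acceptor. Among the 7 genes ps-811 with ps-808 and cpo-1710 with cpo-1707 were such pairs. ps-808 made up 26.3% of its pair after RNase R (21.2 to 32.1) and 30.8% in mock (18.6 to 46.4), while cpo-1707 made up 4.39% (2.68 to 7.11) after RNase R and had no mock read.

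The remaining genes ranged from 1 dominant junction to several of like level. bl-3138 (2R:16483062-16486199, plus strand), which matched 4 exons, had 183 of 232 bl reads, or 78.9%, and bl-258 (2R:16483062-16483319), with the same start and 2 exons, had 41. aret-913 (2L:12240868-12241780, plus strand) matched a single exon and had 81 of 113 aret reads (71.7%), with aret-827 (2L:12298568-12299394) at 30. pum-777 (3R:5043709-5044485, minus strand) matched 3 exons and had 155 of 255 pum reads (60.8%). Next came pum-1278 (3R:4905467-4906744), which matched a single coding exon, with 35, and pum-2257 (3R:4944891-4947147), whose length matched no exon or run of exons, with 19. Sxl-371 (X:6984167-6984537, minus strand), the length of a single exon, had 33 of 58 Sxl reads, and Sxl-1380 (X:6978632-6980011), which matched 4 exons, had 10. In sm no junction led: sm-18501 (2R:15433517-15452017, minus strand) had 55, sm-590 49, sm-436 41, sm-324 30 and sm-339 22 of 230. sm-324 and sm-339 share their acceptor, and their donors lie 15 bases apart. A bl junction with ends 7678289 bases apart had 1 RNase R and 1 mock read, and its host gene label is uncertain.

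RNase R removes linear RNA, and few junctions of the 7 genes passed the test between the treatments. Counts were scaled to listed back-splice reads, so this test cannot show a gain shared by all circles. It asks only for a change relative to other junctions. Listed reads of the members were 8.43 times as many after RNase R as in mock, and all listed reads 7.36 times. These ratios also depend on sequencing depth. Of 26 member junctions tested, 0 were higher and 1 was lower relative to mock by edgeR's quasi-likelihood test at an adjusted p below 0.05, against 7.39% of all 1354 junctions. The median log2 fold change of the members was 0.36, against 0.41 over all junctions. That median is set by the scaling: it was 1.12 under TMM over all tested junctions, where 6 members were higher and 0 lower, and 0.56 under RLE, where 1 was higher and 0 lower. With library totals as the sole scaling, 1 member was higher and 1 lower.

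The junction that fell relative to the others was pum-2257, with 19 RNase R and 10 mock reads. It had 1.53 ± 1.76 reads per 10000 in RNase R libraries and 5.95 ± 5.59 in mock libraries (SD, n = 8 each), a log2 fold change of -1.86 ± 0.61 (SE; edgeR adjusted p = 0.0352). RNase R was lower in 5 RNA samples, higher in 2 and equal at 0 in 1. The call was lost without both libraries of slow29 replicate 1, WT18 replicate 1, WT18 replicate 2, WT29 replicate 1 or WT29 replicate 2, at adjusted p from 0.0555 to 0.175, and under TMM over all junctions (0.119) and RLE (0.0602). DESeq2 gave 0 member calls (adjusted p = 0.137 for pum-2257).

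Other members stayed short of the threshold. sm-18501 had 5.07 ± 2.9 reads per 10000 in RNase R libraries and 0.554 ± 1.57 in mock libraries (SD, n = 8 each), with 55 reads against 1, and RNase R was higher in 7 of 8 RNA samples (log2 fold change 2.66 ± 0.97, edgeR adjusted p = 0.0728). Of 16 alternatives, 4 called sm-18501 (lowest edgeR adjusted p = 0.00228). Among left-out samples 1 did so: slow29 replicate 2, whose libraries hold the only mock read of sm-18501 (adjusted p = 0.0148). For the summed reads of a gene, 0 of 7 members passed by edgeR against 10% of 820 genes, with 2 at an unadjusted p below 0.05 and 0 by DESeq2. sm had 22.6 ± 5.53 in RNase R and 9.47 ± 9.35 in mock libraries (log2 fold change 1.03 ± 0.40, edgeR adjusted p = 0.0807), and bl 22.7 ± 5.34 and 15.2 ± 13.1 (0.72 ± 0.36, adjusted p = 0.198). Under RLE scaling, and without slow29 replicate 2, 1 of the 7 genes passed.

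The share of a junction within its gene did not pass for any of 26 members by edgeR's diffSpliceDGE, against 2.57% of 816 junctions, with 2 at an unadjusted p below 0.05. These 2 were pum-2257 and Sxl-2037. Sxl-2037, whose length also matched none, had 8 RNase R reads and 5 mock reads. Summed levels of the junctions of some marker genes moved with the treatment, although both libraries of an RNA sample share that RNA. The 6 photoreceptor genes had 29.1 to 53.9 reads per 10000 in RNase R and 194 to 397 in mock heads. The 7 muscle genes had 24.7 to 94.7 and 104 to 388, and the fat body genes 3.95 to 19.6 and 20.4 to 75.3. Other lists overlapped between the treatments: neuron genes had 40.8 to 57.4 and 43.8 to 79.1, and hemocyte genes 11.4 to 31.9 and 0 to 18.9. Of the tested junctions, edgeR called 7 of 10 photoreceptor, 4 of 8 muscle and 2 of 4 fat body junctions lower relative to mock. It called 0 of 16 neuron and 0 of 3 hemocyte junctions, against 7.39% of all 1354. Why these junctions moved was not tested.

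**Figure D2:**
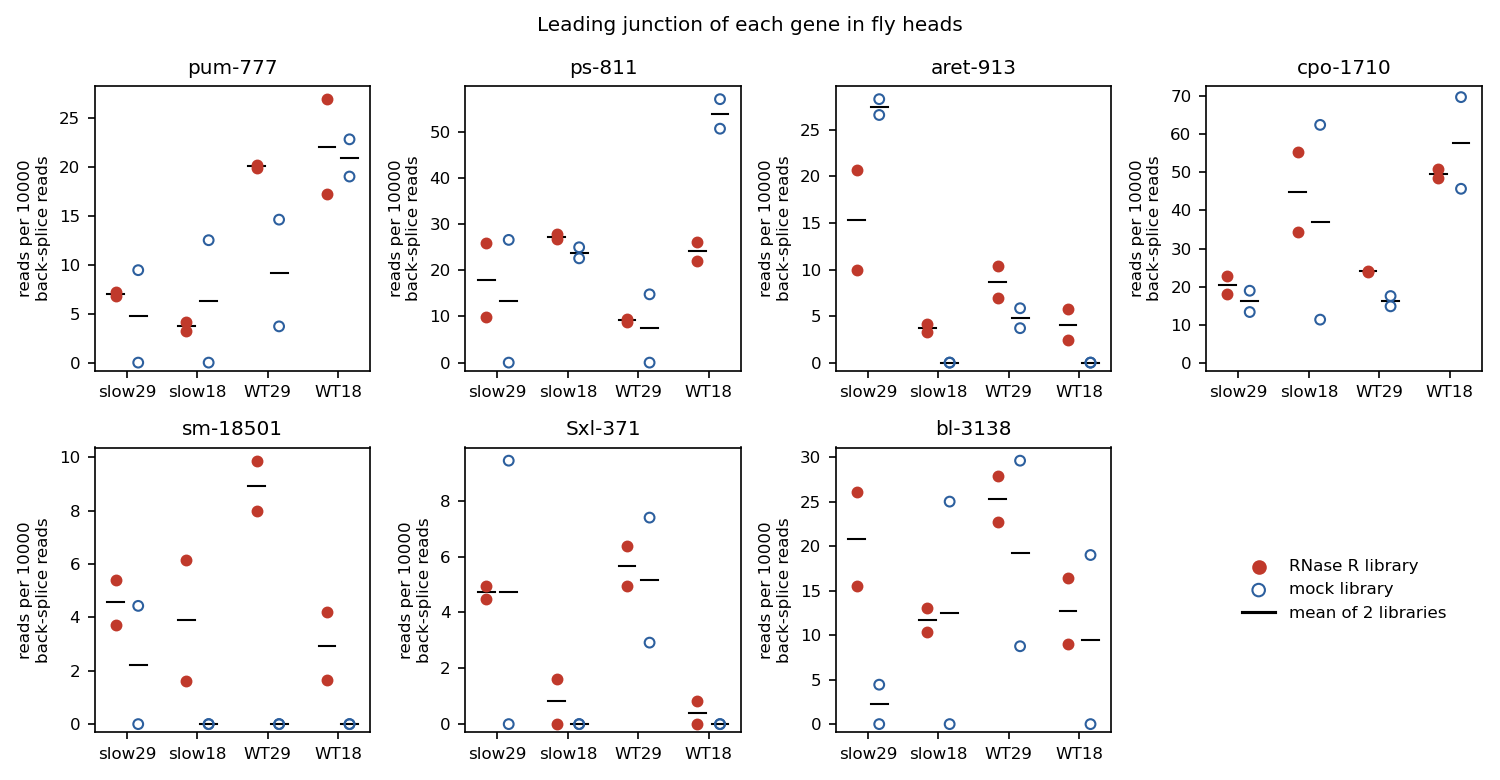
Reads per 10000 back-splice reads (vertical axis) of the leading junction of each gene in the 16 head libraries, by genotype and title number on the horizontal axis. Filled points are RNase R libraries, open points mock libraries and bars the mean of 2 libraries. In RNase R libraries pum-777 lay between 3.27 and 7.2 in slow heads, below all WT heads.

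The slow and WT flies were set against each other to ask whether the speed of the polymerase bears on circles, and among the 7 genes pum-777 was lower in slow heads. In slow RNase R heads it had 7.2 and 6.82 reads per 10000 at title number 29 and 3.27 and 4.11 at 18. In WT RNase R heads it had 20.2 and 19.9 at 29 and 17.2 and 26.9 at 18. The 4 slow libraries all lay below the 4 WT libraries, with means of 5.35 ± 1.95 in slow and 21.1 ± 4.13 in WT (SD, n = 4 each). The log2 fold change was -1.81 ± 0.35 (SE; edgeR adjusted p = 5.68e-05). It stayed past the threshold under all 17 alternatives tried, with leave-one-out values among them.

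pum-777 was the 1 member called of 24 tested (0 higher, 1 lower), against 3.03% of 1221 junctions. The median log2 fold change was -0.06 over the 24 and -0.14 over all. In mock heads pum-777 had 9.44, 0, 12.5 and 0 reads per 10000 in slow libraries and 14.6, 3.7, 19 and 22.8 in WT libraries, with 29 before 18 in each, and did not pass (log2 fold change -1.56 ± 0.97, edgeR unadjusted p = 0.106). Those mock values rest on 2 slow reads and 11 WT reads.

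The summed pum reads, of which pum-777 is a part, were lower in slow heads as well. They came to 15.9 ± 0.786 reads per 10000 in slow and 30.6 ± 5.55 in WT RNase R libraries (SD, n = 4 each), with no overlap, a log2 fold change of -0.81 ± 0.25 (edgeR adjusted p = 0.0241). The junction pum-777 held 37.7% of the reads in slow (Wilson 95% interval 26.6 to 50.3, 23 of 61 reads) and 68% in WT (61.2 to 74.2, 132 of 194 reads). The test of its share gave a log2 change of -0.76 and an adjusted p of 0.91 by diffSpliceDGE (unadjusted 0.0487). The other tested pum junctions did not pass by edgeR. Their log2 fold changes were -0.32 (pum-1278), -0.05 (pum-2257), -1.07 (pum-506) and 2.23 (pum-2591). pum-2591 (3R:5057796-5060386), with 10 RNase R reads in all, had the smallest p of the member shares (unadjusted 0.000734, adjusted p = 0.262).

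ps was the other gene whose summed reads changed, and it was higher in slow heads. It had 48.7 ± 7.22 reads per 10000 in slow and 36.8 ± 3.05 in WT RNase R libraries (SD, n = 4 each), which overlapped, a log2 fold change of 0.58 ± 0.19 (edgeR adjusted p = 0.0468). Of 7 genes 2 thus passed, against 6.36% of 770. The pum call was lost without slow18 replicate 1, slow29 replicate 1, slow29 replicate 2, WT18 replicate 2 or WT29 replicate 1 (adjusted p from 0.0792 to 0.135). The ps call was lost without any 1 of the 8 libraries but slow18 replicate 2 (0.0697 to 0.299), and with library totals, no filter and all listed junctions (0.0515 to 0.181). DESeq2 gave 0 member genes.

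No single ps junction passed. ps-808 had 13.5, 11.2, 6.53 and 6.16 reads per 10000 in slow libraries and 1.97, 4.78, 4.92 and 5.38 in WT libraries, all slow values above all WT values. Its log2 fold change was 1.30 ± 0.43 (edgeR adjusted p = 0.068). It passed in 4 of 16 alternatives (lowest adjusted p = 0.03), among them those without slow18 replicate 1 (0.043) or slow18 replicate 2 (0.0383). ps-811 had 22.6 ± 8.49 in slow and 16.7 ± 8.8 in WT (0.62 ± 0.27, adjusted p = 0.253), and ps-1454 15.7 ± 7.81 and 14 ± 5.43 (0.17 ± 0.30, adjusted p = 0.863). With ps-811 and ps-808 summed, the log2 fold change was 0.79 (adjusted p = 0.0451).

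No share of a member within its gene passed between the genotypes: 0 of 24 by diffSpliceDGE, with 2 at an unadjusted p below 0.05, against 0.139% of 719. In mock heads, edgeR called 0 of 9 member junctions (1 at an unadjusted p below 0.05, aret-913 with a log2 fold change of 2.22 ± 0.88; 0 by DESeq2), where 0% of 230 were called. It called 0 of 7 shares (0 at an unadjusted p below 0.05), where 0% of 77 were called, and 0 of 6 summed genes (2 at an unadjusted p below 0.05, 0 by DESeq2), against 0.41% of 244.

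**Figure D3:**
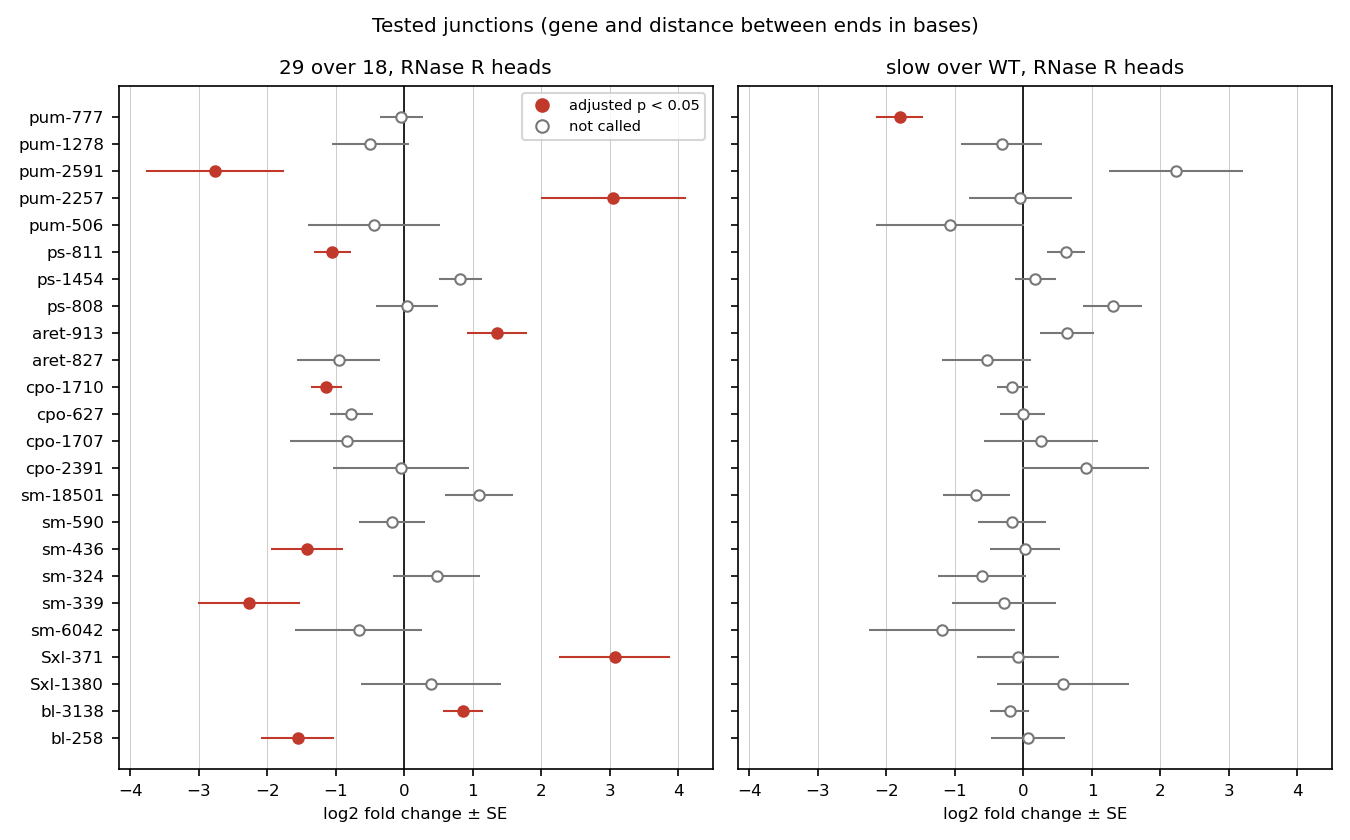
Log2 fold changes (horizontal axes, bars ± 1 SE of the edgeR test) of the 24 tested junctions in RNase R heads for 29 over 18 (left) and slow over WT (right). Filled points passed an adjusted p of 0.05: 10 on the left, 4 to the right of 0 and 6 to its left, and pum-777 alone on the right.

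Between the title numbers 29 and 18 some junctions of these genes passed, but most of the calls were lost under at least 1 alternative. In RNase R heads 10 of 24 junctions passed, 4 higher and 6 lower at 29, against 14.7% of 1221 junctions, and each of the 7 genes held at least 1. Medians of the log2 fold change were -0.31 for the members and -0.15 over all junctions. The split depends on the scaling: TMM over all junctions and RLE each gave 5 higher and 3 lower, and library totals 5 and 4. Over all junctions the split was 69 higher and 110 lower, against 94 and 74 under TMM over all junctions, 92 and 76 under RLE and 75 and 91 with library totals. DESeq2 called 4 members. Leaving out WT18 replicate 2 gave 2, and leaving out slow18 replicate 1, slow18 replicate 2, slow29 replicate 1 or WT29 replicate 1 gave 6, 6, 5 and 6.

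Of the members that were lower at 29, cpo-1710 had the smallest p. It had 18, 22.9, 24.2 and 23.9 reads per 10000 in the libraries of 29 and 34.3, 55.4, 50.8 and 48.5 in those of 18, with slow before WT in each. All values at 29 lay below all values at 18, in both genotypes. The log2 fold change was -1.14 ± 0.23 (SE; edgeR adjusted p = 2.97e-05), and it held under all 17 alternatives. cpo-627, with the same donor, stood at 10.5 ± 3.42 in 29 and 16.7 ± 3.06 in 18 (SD, n = 4 each) and did not pass (-0.77 ± 0.32, adjusted p = 0.0868; 0.0224 without WT29 replicate 2). The summed cpo reads came to 37.4 ± 4.78 at 29 and 71.6 ± 12.9 at 18, a log2 fold change of -0.98 ± 0.18 (edgeR adjusted p = 3.14e-06), and it passed under all 15 alternatives run. cpo was the 1 of 7 genes to pass, against 16.4% of 770.

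In ps the single-exon circle was lower at 29, while the summed reads stood at 43.8 ± 11.3 at 29 and 41.6 ± 4.93 at 18 (log2 fold change -0.07 ± 0.19). ps-811 had 9.9, 26, 8.89 and 9.56 reads per 10000 at 29 and 27.8, 26.7, 26.2 and 22.1 at 18, so that replicate 2 of slow29 alone reached the level of 18. Its log2 fold change was -1.05 ± 0.27 (edgeR adjusted p = 0.00212; 0.109 by DESeq2). ps-1454 had 25.2, 16.7, 19.7 and 16.7 at 29 and 14.7, 6.16, 7.37 and 12 at 18, all values at 29 above all at 18, but missed the threshold (0.82 ± 0.31, adjusted p = 0.0535). It passed under TMM over all junctions, RLE and library totals (0.00889 to 0.0313) and without slow29 replicate 2 (0.0339) or WT29 replicate 2 (0.0441). ps-1454 made up 58.3% of the reads of both junctions at 29 (Wilson 95% interval 51.3 to 64.9) and 29.3% at 18 (22.4 to 37.3). The tests of the shares within ps gave adjusted p = 0.0983 for ps-811 and 0.115 for ps-1454 by diffSpliceDGE. ps-808, 3 bases from ps-811, had a log2 fold change of 0.05 ± 0.45.

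In bl the 2 junctions with a common start moved apart. bl-3138 had 26.1, 15.5, 22.7 and 27.9 reads per 10000 at 29 and 13.1, 10.3, 16.4 and 8.97 at 18, a log2 fold change of 0.86 ± 0.29 (edgeR adjusted p = 0.0306). bl-258 had 1.8, 3.1, 0.987 and 3.98 at 29 and 4.9, 8.21, 4.92 and 8.38 at 18, all values at 29 below all at 18 (-1.56 ± 0.53, adjusted p = 0.0293). Their balance followed: bl-258 made up 6.45%, 16.7%, 4.17% and 12.5% of the pair at 29, against 27.3%, 44.4%, 23.1% and 48.3% at 18. Pooled, that was 9.4% (Wilson 95% interval 5.68 to 15.2) at 29 and 36% (26.1 to 47.3) at 18. bl-258 was the 1 of 24 members whose share within the gene passed, with a log2 change of -1.92 (diffSpliceDGE adjusted p = 0.0362), against 1.39% of 719. The share lost its call without slow18 replicate 2, slow29 replicate 1, WT18 replicate 2 or WT29 replicate 1 (adjusted p from 0.0729 to 0.262), and with no filter (0.057). With at least 30 reads required, 4 member shares passed, and without slow29 replicate 2 or WT29 replicate 2 it was 2.

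**Figure D4:**
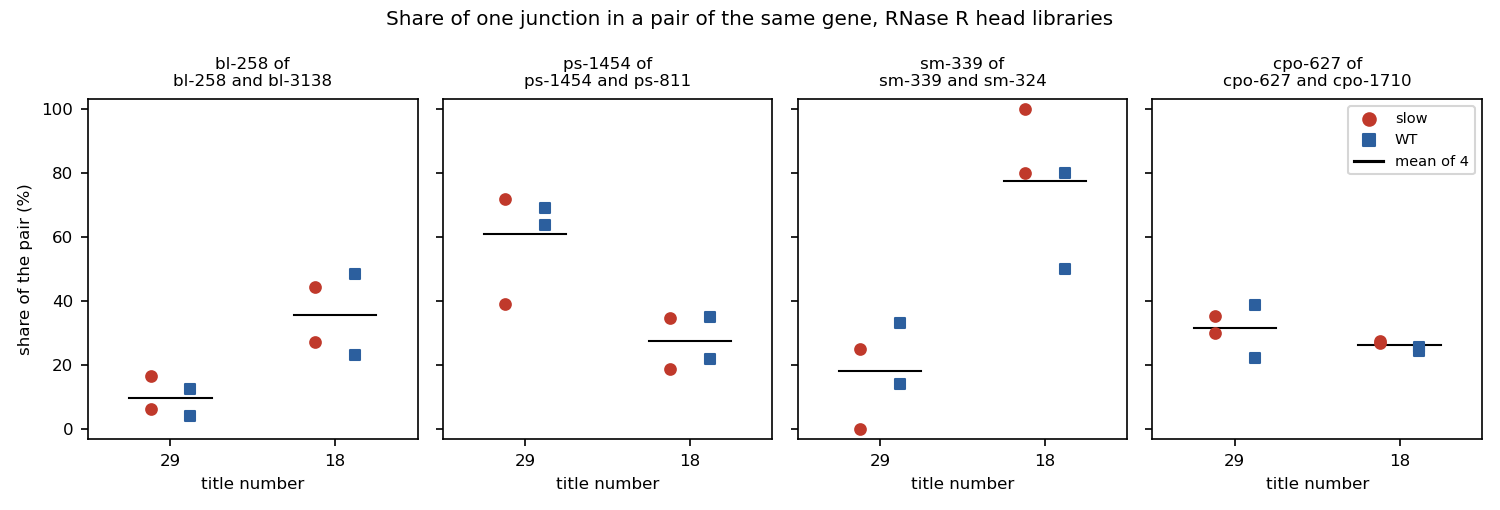
Share of the first-named junction in the reads of a pair of the same gene, in percent (vertical axes), in the 4 RNase R head libraries of each title number. Circles are slow, squares WT and bars the mean of 4. The values of bl-258 at 29 lie between 4.17% and 16.7%, below all values at 18, while cpo-627 overlaps.

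Each bl junction alone also depended on single libraries. The bl-3138 call was lost without slow18 replicate 2, slow29 replicate 1, WT18 replicate 2 or WT29 replicate 2 (edgeR adjusted p from 0.0731 to 0.3), and with no filter (0.0599). The bl-258 call was lost without slow29 replicate 1, WT18 replicate 2 or WT29 replicate 1 (0.0559 to 0.269), and under TMM over all junctions, RLE and DESeq2 (0.069 to 0.213).

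The translational repressor genes and Sxl added 4 further calls. aret-913 had 20.7, 9.92, 6.91 and 10.4 reads per 10000 at 29 and 3.27, 4.11, 5.74 and 2.39 at 18, all values at 29 above all at 18 (log2 fold change 1.36 ± 0.44, edgeR adjusted p = 0.0187). Its call was lost without slow18 replicate 1, slow18 replicate 2, slow29 replicate 1 or WT18 replicate 2 (0.0584 to 0.123). The second aret junction, aret-827, had 2 ± 1.16 at 29 and 4.42 ± 3 at 18 (-0.95 ± 0.61, adjusted p = 0.318). Sxl-371 had 4.5, 4.96, 4.94 and 6.38 at 29 and 1.63, 0, 0.819 and 0 at 18, with 31 reads against 2 (3.08 ± 0.81, adjusted p = 0.00226; 0.0719 without WT18 replicate 2).

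In pum, 2 rare junctions passed in opposite directions, and pum-777 did not pass. pum-2257 had 18 reads at 29 and 1 at 18 (log2 fold change 3.06 ± 1.05, edgeR adjusted p = 0.0323), of which 10 came from WT29 replicate 1. Without slow18 replicate 2, WT18 replicate 1 or WT18 replicate 2 its adjusted p was 0.0668 to 0.207. pum-2591 had 0.9, 0.62, 0 and 0 reads per 10000 at 29 and 1.63, 8.21, 0.819 and 1.2 at 18, with 2 reads against 8 (-2.76 ± 1.01, adjusted p = 0.0449). The pum-2591 call held in 2 of the 9 alternatives that gave a value. Its adjusted p was 0.131 without WT29 replicate 1, 0.0569 without WT29 replicate 2, and 0.0538 to 0.089 under TMM over all junctions, RLE, library totals and no filter. pum-777 stood at 13.5 ± 7.55 at 29 and 12.9 ± 11.3 at 18 (-0.04 ± 0.31, adjusted p = 0.946).

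Both sm calls were lower at 29. sm-339 had 0.9, 0, 1.48 and 0.797 reads per 10000 at 29 and 6.53, 2.05, 3.28 and 4.79 at 18, all values at 29 below all at 18 (log2 fold change -2.26 ± 0.74, edgeR adjusted p = 0.0238). The adjusted p was 0.0786 to 0.121 without slow18 replicate 1, slow29 replicate 2 or WT18 replicate 2, and 0.122 by DESeq2. Its neighbour sm-324, 15 bases shorter at the donor, had 3.39 ± 0.945 at 29 and 1.81 ± 2.09 at 18 (0.48 ± 0.63, adjusted p = 0.681). sm-339 made up 20% of this pair at 29 (5 of 25 reads) and 63% at 18 (17 of 27 reads), and its share within sm had an adjusted p of 0.145 by diffSpliceDGE. sm-436 had 2.48 ± 1.58 at 29 and 6.26 ± 2.09 at 18 (-1.42 ± 0.53, edgeR adjusted p = 0.0478). That call was lost without slow18 replicate 1, slow29 replicate 1, WT18 replicate 1, WT18 replicate 2 or WT29 replicate 1 (0.062 to 0.294). It was also lost under TMM over all junctions, RLE, library totals, DESeq2, no filter and all listed junctions (0.0552 to 0.264), so that of 17 alternatives it held in 5. sm-18501 stood at 6.74 ± 2.72 at 29 and 3.4 ± 2.2 at 18 (1.09 ± 0.50, adjusted p = 0.13).

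Mock heads, with far fewer reads, gave 1 junction and 1 gene. edgeR called 1 of 9 member junctions, against 4.78% of 230, and it was ps-811, with 0, 26.6, 0 and 14.8 reads per 10000 at 29 and 25, 22.6, 50.7 and 57.1 at 18 (log2 fold change -1.79 ± 0.58, adjusted p = 0.0454). The ps-811 call was lost without slow18 replicate 2, slow29 replicate 1 or any 1 of the 4 WT libraries (0.0657 to 0.397), and under TMM over all junctions, no filter, all listed junctions and DESeq2 (0.0674 to 0.583). ps-1454 had 28.3, 17.7, 20.4 and 25.9 at 29 and 12.5, 11.3, 6.34 and 11.4 at 18 (1.22 ± 0.72, adjusted p = 0.343). aret-913 had 28.3, 26.6, 5.84 and 3.7 at 29 and 0 in all 4 libraries of 18, at least 1.75-fold higher against a floor of 3 counts over the 4 libraries (edgeR adjusted p = 0.0768). The mock and RNase R libraries of an RNA sample share that RNA.

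The gene was cpo, lower at 29 by its summed reads: 37.8, 13.3, 20.4 and 25.9 reads per 10000 at 29 and 62.5, 45.2, 95.1 and 57.1 at 18, with no overlap (log2 fold change -1.50 ± 0.43, edgeR adjusted p = 0.0158). That was 1 of 6 genes called, against 4.51% of 244. The cpo call was lost without slow18 replicate 2, slow29 replicate 2, WT18 replicate 1, WT29 replicate 1 or WT29 replicate 2 (0.0525 to 0.378), and with no filter, all listed junctions and DESeq2 (0.0623 to 0.378). Of 7 member shares 0 passed by diffSpliceDGE (1 at an unadjusted p below 0.05, ps-1454), where 0% of 77 were called.

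Markers of another tissue moved with the title number. The 7 muscle genes summed to 24.7 to 43.8 reads per 10000 at 29 and 47.5 to 94.7 at 18 in RNase R heads, with no overlap. All 7 had listed junctions, but only 7 junctions of 3 of the genes were tested. Of these, edgeR called 1 higher and 3 lower at 29, against 14.7% of all 1221 junctions. The part of the muscle genes in the results was not tested. The glial list had 0.494 to 1.59 at 29 and 0 at 18, from 1 junction of 1 of its 5 genes, with repo, moody, nrv2 and loco lacking listed junctions. The neuron list did not separate, with 47.7 to 53.9 at 29 and 40.8 to 57.4 at 18.

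Whether the difference between 29 and 18 depended on the genotype was tested as an interaction. edgeR called 0 of 24 members, with 0 at an unadjusted p below 0.05 and 0 by DESeq2, where 0% of 1221 junctions were called. The smallest p of the members was that of ps-808 (log2 interaction 1.64 ± 0.91, unadjusted p = 0.0735, adjusted p = 0.918).

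Other RNA-binding genes were counted in the same comparisons. Of a list of 58, 19 had listed head junctions, and 28 junctions of 10 genes were tested in RNase R heads. Their counts lay near the shares over all junctions given above for each comparison. Between 29 and 18, edgeR called 3 higher and 1 lower of them, with mbl-654, mbl-86688 and mbl-20304 of muscleblind at log2 fold changes of 0.44, 1.25 and 2.35 and fus-1511 of the splicing regulator fusilli at -1.66. Between slow and WT it called mbl-654 alone (0.57), and between RNase R and mock 2 of 31, mbl-86688 and pAbp-138, both lower.

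S2 cells gave 1 library per treatment and therefore no test. Their tables hold fewer libraries and reads than those of heads, so the numbers of junctions listed cannot be set against each other. Reads were listed for 15 member junctions, 11 of them also in heads, in ps, pum, Sxl and bl. No junction of cpo, sm or aret was listed in S2 cells, whose table lists no total below 2 reads. pum had 25.5 reads per 10000 in S2 RNase R (exact Poisson 95% interval 18.1 to 35.1, counting error only), against 23.2 ± 8.68 in the 8 RNase R head libraries (SD).

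Another pum junction had the most reads in the S2 RNase R library, though not in the S2 mock library. pum-1278, the length of a single coding exon, had 17 of 38 RNase R reads. That was 11.4 reads per 10000 (6.66 to 18.3), against 1.8 to 5.98 in RNase R heads. pum-777 had 13 reads or 8.74 (4.65 to 14.9), against 3.27 to 7.2 in slow heads and 17.2 to 26.9 in WT heads. The intervals of the 2 junctions in S2 RNase R overlap. In the S2 mock library pum-777 had 4 reads and pum-1278 had 0. As a share of pum, pum-1278 made up 44.7% in S2 RNase R (Wilson 95% interval 30.1 to 60.3) and 13.7% in RNase R heads (10 to 18.5).

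In ps the single-exon circle led and the downstream one was rare. ps-811 had 26 reads in S2 RNase R, or 17.5 reads per 10000 (exact Poisson 95% interval 11.4 to 25.6), against 8.89 to 27.8 in RNase R heads. ps-1454 had 2 reads, or 1.34 (0.163 to 4.86), against 6.16 to 25.2. ps-808 made up 27.8% of its pair in S2 RNase R (10 of 36 reads) and 26.3% in RNase R heads (65 of 247 reads). ps-199 was listed in S2 cells alone, with 4 RNase R reads and no mock read. bl-258 was the 1 bl junction of S2 cells, with 3 RNase R reads, and bl-3138 was not listed there. In Sxl the 2 S2 junctions, absent from the head tables, have ends 714003 and 714091 bases apart, with 1 RNase R read each and 2 and 3 mock reads, so their label does not show that the reads come from Sxl. A ps junction of S2 cells, ps-132, lies on the minus strand while all other ps junctions lie on the plus strand, and has 1 read per library.

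The stranded library of WT heads, with 2599 listed reads, held 7 member junctions. cpo-1710 led with 16 reads, 61.6 reads per 10000 (exact Poisson 95% interval 35.2 to 100), against 17.5, 14.8, 69.8 and 45.7 in the unstranded mock libraries of WT heads. ps-1454 had 8 reads (30.8, with 13.3 to 60.7) against 20.4, 25.9, 6.34 and 11.4, and bl-3138 had 5. pum-777, the leading pum junction of WT heads elsewhere, was not listed in the stranded library. No count below 2 is listed there, and in the WT mock libraries pum-777 had 5, 1, 3 and 2 reads, with 29 before 18. Its absence therefore does not show a lower level. The 2 pum junctions of the stranded library were pum-2591 with 3 reads and pum-2257 with 2.

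Each leading junction had a different nearest junction over the 8 RNase R head libraries, while Lar-1065 and Parp-534 each came second for more than 1. By Pearson's r of log2(reads per 10000 + 1) with all junctions of other genes that had at least 100 reads, a description over libraries that share genotypes and title numbers, pum-777 was most like foxo-612 (r = 0.938) and beat-Vc-2373 (0.929). cpo-1710 was most like orb2-877 (0.959), from another RNA-binding gene, and Lar-1065 (0.937). ps-811 was nearest to Eps-15-1071 (0.896) and Lar-1065 (0.824). aret-913 was nearest to Stim-233 (0.937) and fry-3603 (0.923), sm-18501 to toy-6640 (0.934) and Caps-534 (0.913), Sxl-371 to Gprk1-787 (0.984) and Parp-534 (0.961), and bl-3138 to CG17684-595 (0.95) and Parp-534 (0.893).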

How the data were processed

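CASAVA, Bowtie and build dm3 are named in the submitters' processing notes; versions, junction caller and annotation are not given in the sources used here. Per the labels' protocols, ribosomal RNA was depleted before RNase R or mock treatment. The deposited values are counts of reads per back-splice junction, as whole numbers, in tables the authors deposited per replicate for heads, for S2 cells and for the stranded library. The smallest listed total is 2 reads, so unlisted junctions were set to 0.

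Junctions listed in both replicate tables whose reads summed to at least 10 in a fit, with at least 2 of its libraries above 0, were tested with edgeR 4.0.16 (quasi-likelihood F-test, R 4.3.3, limma 3.58.1), scaled by TMM over the 100 most abundant junctions, two-sided, with Benjamini-Hochberg adjustment over all features at 0.05. The fit of RNase R against mock had the RNA sample as block, that of genotype had title number as factor, and that of title number had genotype. In tests, gene totals sum all junctions listed in both replicate tables, and the read filter applies to the total. In displayed levels they sum all listed junctions. Shares within genes used diffSpliceDGE. SE is the absolute log2 fold change over the square root of F. DESeq2 1.42.0, scalings, filters and left-out replicates were alternatives. Fits were tested on simulated data. Wilson and exact Poisson intervals (95%) and the floor of 3 counts cover counting error only; reads carry no molecular identifiers. Named are each gene's leading and second junctions, every junction past a threshold, and leading S2 and stranded junctions; others were named after their values were seen. The members and lists were chosen with earlier results of these data known.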

Additional observations from a re-analysis of the deposited data

Results flagged for a closer look

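Among 28 groups of 4 RNase R head libraries tested over the leading junctions, 2 held a library far from the other 3 by Dixon's criterion, about as many as chance gives at 1 in 20 groups, and both concern ps-811. Replicate 1 of slow29 had 9.9 reads per 10000, against 26 to 27.8 in the other slow libraries. Replicate 2 of slow29 had 26 reads per 10000, against 8.89 to 9.9 in the other libraries of 29. The 2 replicates of slow29 therefore differ from each other in ps-811. In the mock libraries of the same RNA samples ps-811 had 0 reads per 10000 in replicate 1 and 26.6 in replicate 2.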

How the results depend on the processing

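Counts of members called moved by over 1.5 times in these cases. For RNase R against mock (1 junction) TMM over all junctions gave 6, library totals 2, DESeq2 0 and a filter of 30 reads 0, with 0 to 2 on leaving out each RNA sample; RLE gave 1 gene in place of 0, with 0 to 1 on leaving out each RNA sample. For slow against WT after RNase R (1 junction) RLE, a filter of 30 reads and summing starts 3 bases apart, an alternative chosen after seeing the data, each gave 2, and leaving out each library 1 to 2. Its 2 genes became 1 with library totals, with no filter and with all listed junctions, 0 with DESeq2, and 0 to 2 on leaving out each library. For 29 against 18 after RNase R, DESeq2 gave 4 junctions in place of 10 and leaving out each library 2 to 10. Shares gave 0 in place of 1 with no filter, 4 with a filter of 30 reads and 0 to 2 on leaving out each library, and genes gave 2 in place of 1 with RLE and 1 to 2 on leaving out each library. In mock heads the 1 junction and the 1 gene became 0 with DESeq2, no filter and all listed junctions, the junction also with TMM over all junctions, and 0 to 1 on leaving out each library. The cause was not tested.

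Of 18 named calls, 3 (pum-777 between genotypes, and cpo-1710 and summed cpo between title numbers, all after RNase R) held under every alternative run, and 0 reversed. Replicate numbers were not taken to pair the samples, since not every correlation of replicate differences was over 0.1: they were -0.098 to 0.077 after RNase R and -0.078 to 0.186 in mock, where 2 of 6 were over 0.1. With a replicate block, 29 against 18 had 8 member junctions after RNase R and 1 in mock, and slow against WT had 1 after RNase R; without the RNA sample as block, RNase R against mock had 1. The block ended the calls of sm-436 (edgeR adjusted p = 0.0515) and pum-2591 (0.059) between 29 and 18. Of the 56 members, 35 had at most 10 RNase R reads.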
